A study of Homo sapiens with 6 samples.

Results

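Histone genes were described in RNA sequencing of prostate cancer cells, 1 library for each combination of 2 lines and 3 treatments. BicR is labelled only as prostate cancer, and its derivation is not given in the sources used here. LNCaP is an established, androgen-responsive prostate cancer line. Before treatment, both lines were held for 3 days in hormone-poor medium, free of phenol red and with 2.5% charcoal-stripped serum. They then received 10 nM dihydrotestosterone (DHT, an androgen), 1 µM bicalutamide (an antiandrogen) or ethanol vehicle for 24 h. Members were all rows with a symbol starting with HIST1H, HIST2H, HIST3H, HIST4H, H1F, H2AF or H3F and a count above 0 in at least 1 library. The table held 87 such symbols, of which 70 had a count, among 21512 rows in all. The 59 HIST members are called replication-dependent and the other 11 replacement histones.

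Histones package DNA into nucleosomes, each built from the core types H2A, H2B, H3 and H4, with H1 binding the linker DNA. Replication-dependent histone genes lie in clusters, are transcribed mainly in S phase, and usually end their mRNA in a conserved stem-loop instead of a poly(A) tail. Replacement histones are made throughout the cell cycle from separate genes with ordinary polyadenylated mRNA. Some replication-dependent genes also make polyadenylated transcripts.

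The stem-loop is shown first because it marks the replication-dependent class at the RNA level. It was searched, on the sense strand, as the 16-base histone stem-loop motif in GENCODE release 29 transcripts. It occurred in 43 of 19669 protein-coding genes, or 0.219%, and 33 of those 43 were among the 87 histone symbols. Of these, 32 were replication-dependent and 1, H2AFX, was a replacement gene. The sites below run 5′ to 3′, with the stem-loop in capitals and 5 bases on either side in lower case. Chosen for display are the highest H2A, H2B and H4 genes that carry it (HIST1H2BD being the next H2B gene), a loop with another letter (HIST1H3E), a gene lower in BicR by estimate (HIST3H2A) and the replacement gene.
HIST1H2AC (chromosome 6): ccaaaGGCTCTTTTCAGAGCCcccct
HIST2H2BE (chromosome 1): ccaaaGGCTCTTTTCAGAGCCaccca
HIST1H2BD (chromosome 6): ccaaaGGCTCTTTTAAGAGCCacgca
HIST1H4H (chromosome 6): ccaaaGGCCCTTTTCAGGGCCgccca
HIST1H3E (chromosome 6): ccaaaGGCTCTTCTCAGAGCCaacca
HIST3H2A (chromosome 1): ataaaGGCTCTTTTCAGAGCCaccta
H2AFX (chromosome 11): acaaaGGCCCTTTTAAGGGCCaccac
A transcript in which no match was found shows only that these letters are not in its annotated sequence.

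Total counts ran from 42162723 to 55917016 per library. The LNCaP ethanol library stood apart, with 0.790% of its counts on the chaperone gene HSPA5, against 0.131% to 0.164% in the other libraries. Prostate luminal markers were all measurable (9 of 9, summed level 3895 to 11565 CPM), while 0 of 3 basal markers were, with a sum of 0.154 to 1.04 CPM. Of the immune markers 1 of 4 was measurable (sum 11.3 to 17.6 CPM in BicR and 21.2 to 28.5 CPM in LNCaP), with PTPRC at 0 throughout. Of the mesenchymal markers 3 of 4 were (sum 26.8 to 28.5 CPM in BicR and 38.8 to 48.6 CPM in LNCaP), with COL1A2 at 0. Of the germ cell markers 0 of 3 were, with SYCP3 and PRM1 at 0. The part of these markers in the differences between the lines was not tested. CPM here is the count scaled to library size, and RPKM, made by the authors, also divides by gene length. In such bulk RNA, fewer cells expressing a gene and less RNA per cell cannot be told apart.

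A member was called measurable when its mean over the libraries reached 20 counts. This held for 45 members, 35 of them replication-dependent and 10 replacement. A further 25 members were sparse, 24 replication-dependent and 1 replacement, and 17 symbols were at 0 in every library. In the HIST1 cluster 27 of 55 symbols were measurable, 23 sparse and 5 at 0. In HIST2 5 of 12 were measurable, 1 sparse and 6 at 0. HIST3 had 2 of 3 measurable, and HIST4H4, the only HIST4 symbol, was measurable. By core type, 10 of 17 replication-dependent H2A and 13 of 19 H2B symbols were measurable, against 4 of 14 for H3, 6 of 15 for H4 and 2 of 6 for H1. With a floor of 3 counts, a level of 0.0553 to 0.0715 CPM was the limit of detection per library, for counting error only.

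Some of the unmeasured symbols have little coding sequence of their own. The share of 50-base words of the coding sequence that occur in no other gene was 0% for HIST2H2AA3, HIST2H2AA4, HIST2H3A, HIST2H3C, HIST2H4A and HIST2H4B, all at 0 counts, and 0% to 16.9% for H2AFB1, H2AFB2 and H2AFB3, also at 0. The other 8 symbols at 0 had shares of 99.3% to 100% and included the testis or oocyte linker histone genes H1FNT and H1FOO. H3F3A, which encodes the replacement histone H3.3, had 2, 2 and 6 counts in BicR DHT, bicalutamide and ethanol, and 6, 0 and 1 in LNCaP in the same order of treatments. Its share was 19.3%. H3F3B, which encodes the same protein, had 15214 to 19547 counts and a share of 82.2%. Over whole transcripts, untranslated parts included, the shares were 88.3% for H3F3A and 93.1% for H3F3B, so most of the H3F3A transcript sequence is its own. A small share did not go with low counts everywhere. HIST1H2BK, with 26.1%, averaged 6722 counts, and HIST1H4K, with 0%, averaged 66.2. Nor did a full share go with high counts, since HIST1H1B and HIST1H1D, with 100%, averaged 1.5 and 0.167 counts. The authors' treatment of reads that map to several genes is not given in the sources used here, and its part in these counts was not tested.

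**Figure D1:**
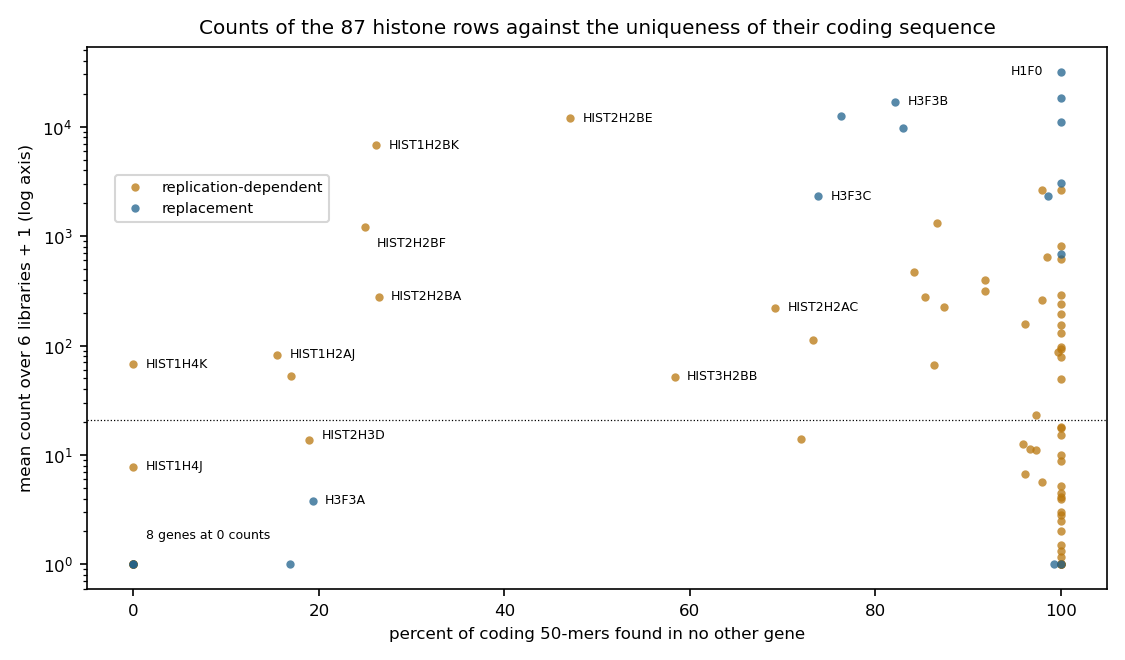
Mean count plus 1 over the 6 libraries (log axis) against the percent of coding 50-base words found in no other gene, for the 87 histone symbols. The dotted line marks a mean of 20 counts; symbols at 0% lie mostly at 0 counts, while those at 100% range from 0 to a mean of 31743 counts (H1F0).

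Replication-dependent symbols were then split by a poly(A) signal (AATAAA or ATTAAA, sense strand) in the last 40 bases of a transcript. Over all of them, 13 of 22 symbols with the signal were measurable, with a median level of 4.92 RPKM, against 22 of 49 without it, with a median of 0.422 RPKM. With at least 20% of coding words of their own, a limit that removes all 5 symbols with the signal at 0 counts, 13 of 16 symbols with the signal were measurable, with a median level of 8.36 RPKM, against 19 of 44 without it, with a median of 0.393 RPKM. Summed over all symbols, the level was 273 RPKM with the signal and 247 RPKM without it. Of the genes listed below for known polyadenylated transcripts, HIST1H2AC, HIST1H2BD, HIST1H2BJ and HIST2H2BE had the signal, and HIST1H2BK and HIST1H1C did not. The annotated transcripts of HIST1H2BK and HIST1H1C, of 381 and 642 bases, stop where the coding sequence ends, so a later signal could not be seen. The same holds for most symbols without the signal, such as HIST1H2AK, HIST1H3A and HIST1H4F, with 393, 411 and 312 bases. For these the split shows only that no sequence after the coding part is annotated. How far the levels and the measurable shares follow annotated length was not tested. The signal occurred in 80.8% of protein-coding genes. It ends 13 of the 35 measurable replication-dependent genes and 8 of the 10 measurable replacement genes. Whether the libraries were selected for poly(A) RNA is not given in the sources used here, and its part was not tested.

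Replication-dependent members were together lower than replacement members in every library. Their summed level was 799, 606 and 613 CPM in BicR DHT, bicalutamide and ethanol, against 2453, 2046 and 2121 CPM for the replacement members. In LNCaP it was 772, 560 and 642 CPM in the same order of treatments, against 2407, 1953 and 2071 CPM. The ratio of replication-dependent to replacement sums was 0.287 to 0.326 in CPM and 0.680 to 0.741 in RPKM. Replication-dependent members took 0.0575% to 0.0794% of all counts and replacement members 0.190% to 0.244%. Both sums were highest in the DHT library of each line.

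**Figure D2:**
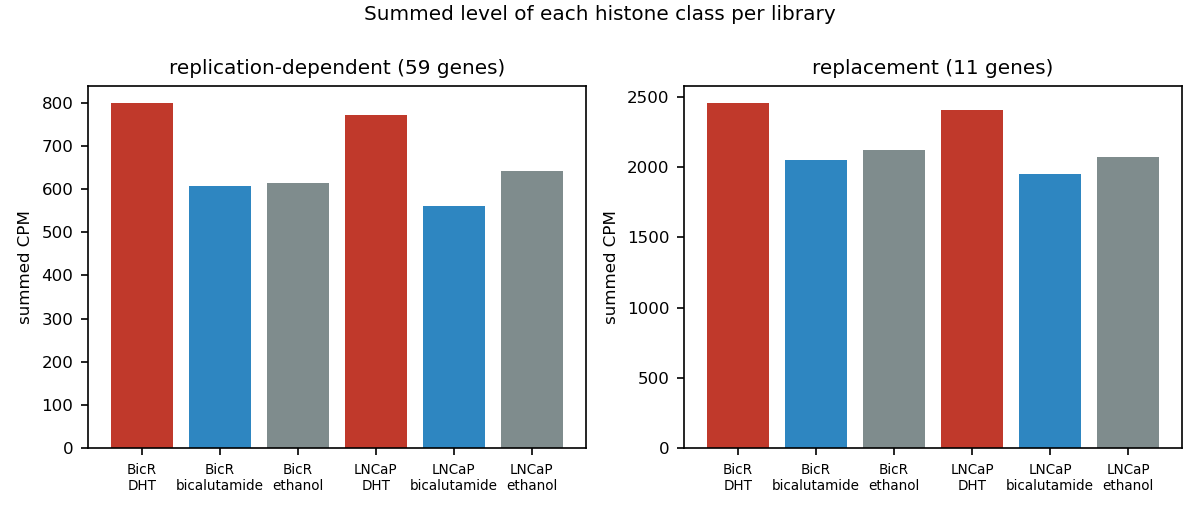
Summed CPM of the 59 replication-dependent and 11 replacement members in each library, BicR left and LNCaP right, coloured by treatment. The DHT libraries are highest in both lines, 799 and 772 CPM for the replication-dependent sum.

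A few genes carried the replication-dependent sum. The 5 highest by mean RPKM took 70.9% to 77.0% of it in CPM and 58.2% to 66.4% in RPKM. H2B genes took 67.7% to 71.9% in CPM and 48.9% to 52.2% in RPKM. HIST1H2BK, an H2B gene, averaged 110 RPKM and HIST2H2BE, another H2B gene, 72.4 RPKM. HIST1H2AC (H2A), HIST1H1C (linker histone H1.2) and HIST1H4H (H4) averaged 66.0, 47.8 and 29.1 RPKM. The highest replacement genes were H1F0, the linker histone of differentiated cells, at 185 RPKM, H2AFZ (H2A.Z) at 138, H2AFY (macroH2A1) at 113, H1FX (linker histone H1x) at 96.4 and H3F3B at 84.4. HIST1H2BK had 141, 122 and 126 CPM in BicR DHT, bicalutamide and ethanol, against 166, 108 and 144 CPM in LNCaP, and the lines overlapped. HIST1H2AC had 67.8, 54.9 and 50.8 CPM in BicR, against 53.4, 46.8 and 47.7 CPM in LNCaP, overlapping as well. H1F0 had 855, 646 and 627 CPM in BicR, against 585, 559 and 586 CPM in LNCaP, so every BicR library was above every LNCaP library. H1FX had 197, 153 and 161 CPM in BicR, against 369, 173 and 255 CPM in LNCaP, with overlap between BicR DHT and LNCaP bicalutamide. H2AFV, a second H2A.Z gene, had 283, 275 and 261 CPM in BicR, against 233, 238 and 210 CPM in LNCaP, without overlap.

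By cluster, the HIST1 sum was 374 ± 39.4 CPM in BicR and 368 ± 67.4 CPM in LNCaP (SD, n = 3 each, over treatments), and the HIST2 sum 288 ± 69.7 CPM in BicR and 272 ± 37.8 CPM in LNCaP. These differences were smaller than the spread. HIST1 genes took 52.5% to 57.8% of the replication-dependent CPM and 75.2% to 78.9% of the RPKM. The HIST3 sum, of HIST3H2A and HIST3H2BB, was 9.77 ± 0.618 CPM in BicR and 17.5 ± 5.02 CPM in LNCaP. HIST4H4 was at 1.04 ± 0.346 CPM in BicR and 0.930 ± 0.363 CPM in LNCaP. By core type, replication-dependent H1 genes summed to 46.2 ± 9.40 CPM in BicR and 64.5 ± 18.2 CPM in LNCaP, most of it HIST1H1C. H3 genes summed to 22.4 ± 1.48 CPM in BicR and 20.9 ± 5.89 CPM in LNCaP, and H4 genes to 28.0 ± 4.88 CPM in BicR and 26.6 ± 3.12 CPM in LNCaP. H3 genes were 2.81% to 3.64% of the replication-dependent CPM and 4.62% to 6.16% of the RPKM. H4 genes were 3.58% to 4.54% of the CPM and 8.12% to 10.3% of the RPKM. Among replacement genes H3F3A, H3F3B and H3F3C together took 16.9% to 18.8% of the CPM and the H2A variants 40.3% to 44.4%. Of the 50-base words of the H3F3C transcript, 21.8% also occur in H3F3B. How far this entered the H3F3C counts was not tested.

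The 6 genes listed for known polyadenylated transcripts (HIST1H1C, HIST1H2AC, HIST1H2BD, HIST1H2BJ, HIST1H2BK and HIST2H2BE) held 73.8% to 78.2% of the replication-dependent CPM. In RPKM, which divides by gene length, they held 58.8% to 64.1%.

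**Figure D3:**
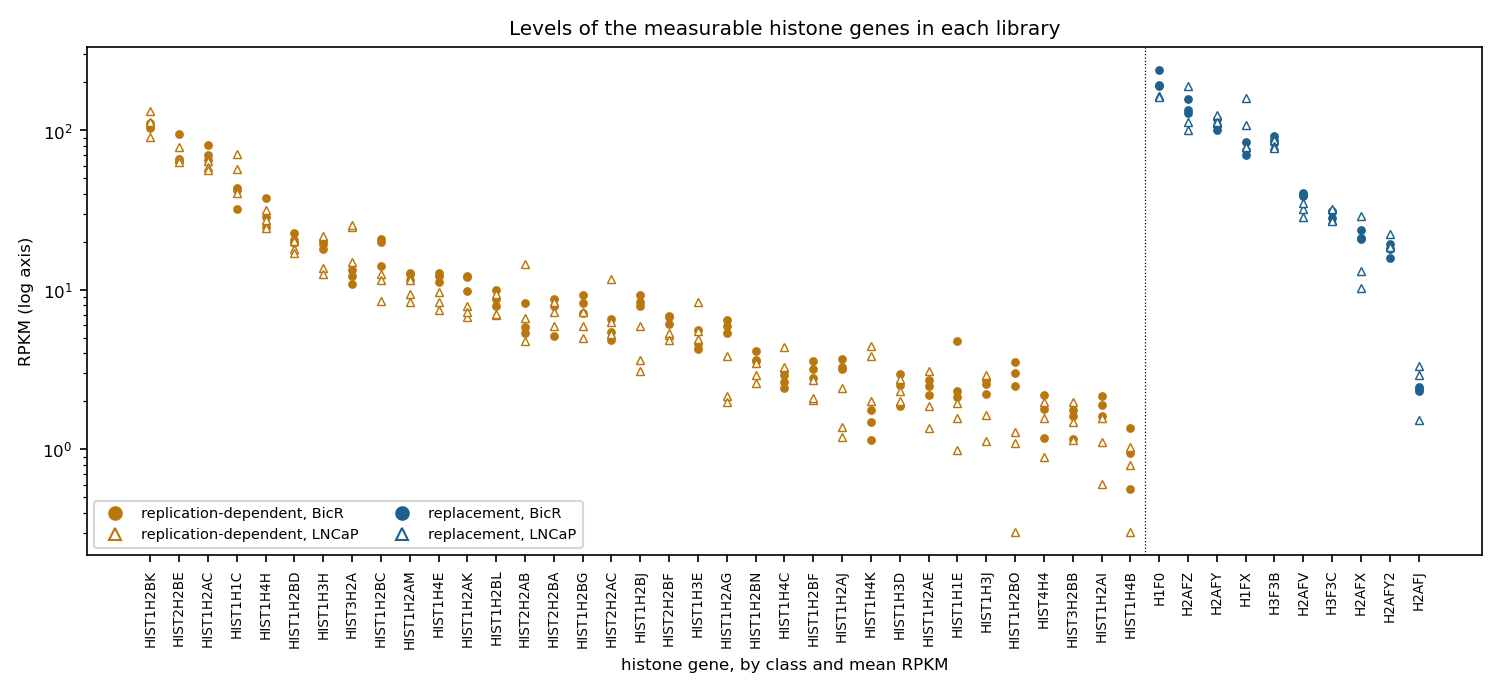
RPKM (log axis) of the 45 measurable members in each library, replication-dependent genes left and replacement genes right, ordered by mean. Circles are BicR and triangles LNCaP; HIST1H2BK leads the first class at 110 RPKM and H1F0 the second at 185.

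The comparison of DHT with ethanol asked which histone genes the androgen changed in both lines. No member passed edgeR's quasi-likelihood test, 0 of 35 replication-dependent and 0 of 10 replacement, where 0.166% of all 13885 tested genes passed. At an unadjusted p under 0.05 there were 4 higher and 1 lower replication-dependent genes and 1 higher replacement gene. DESeq2 also called 0 members. Of the replication-dependent genes, 30 of 35 had a positive estimate with a median log2 fold change of 0.30, and of the replacement genes 8 of 10 with a median of 0.15. Over all tested genes 51.5% were positive, with a median of 0.01. The replication-dependent median was 0.20 to 0.37 when any 1 library was left out.

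HIST2H2BE had 325 CPM in BicR DHT, against 210 in BicR ethanol, and 268 in LNCaP DHT, against 219 in LNCaP ethanol. Both DHT libraries lay above both ethanol libraries, with a log2 fold change of 0.47 (SE 0.20, adjusted p = 0.882 by edgeR). H2AFZ, the H2A.Z gene, had 230 CPM in BicR DHT, against 182 in BicR ethanol, and 277 in LNCaP DHT, against 165 in LNCaP ethanol. Its libraries did not overlap either, with 0.55 (SE 0.22, adjusted p = 0.813 by edgeR). The extremes of the replication-dependent class were HIST2H2AB at 0.99, HIST1H2BO at 0.94 and HIST1H1E at 0.94 on the log2 scale, and HIST1H4B at -1.26, HIST3H2BB at -0.39 and HIST1H2BF at -0.26, and none passed. HIST1H4B rested on 9 to 36 counts. These estimates moved with single libraries: with any 1 left out, HIST2H2AB ran from 0.17 to 1.63, HIST1H2BO from 0.27 to 2.13, HIST1H1E from 0.37 to 1.37 and HIST1H4B from -1.61 to -0.98, while HIST3H2BB and HIST1H2BF changed sign. In the replacement class the highest besides H2AFX and H2AFZ was H1FX at 0.42, and the lowest were H2AFJ at -0.06, H2AFY at -0.03 and H2AFY2 at 0.04.

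H2AFX, whose product H2A.X is phosphorylated at DNA breaks, was higher under DHT than ethanol in LNCaP and slightly lower in BicR, by an interval for counting error only. It had 51.1 CPM in BicR DHT, against 54.1 in BicR ethanol, and 70.5 in LNCaP DHT, against 25.4 in LNCaP ethanol. The count ratio of DHT to ethanol was 0.944 in BicR (95% counting interval 0.892 to 0.999) and 2.78 in LNCaP (2.61 to 2.96). The LNCaP ethanol library stood apart, as given above. Bicalutamide libraries had 48.7 CPM in BicR and 30.3 CPM in LNCaP, so DHT was not lower than bicalutamide in either line. The log2 fold change over both lines was 0.73 (SE 0.33, adjusted p = 0.903 by edgeR), and without the BicR ethanol library it was 1.22 (adjusted p = 0.0253), a fit whose sole ethanol library is that of LNCaP. Without LNCaP ethanol the estimate was 0.23, and without LNCaP DHT it was 0.01. With 1 library per group, whether the response differs between the lines has no test.

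**Figure D4:**
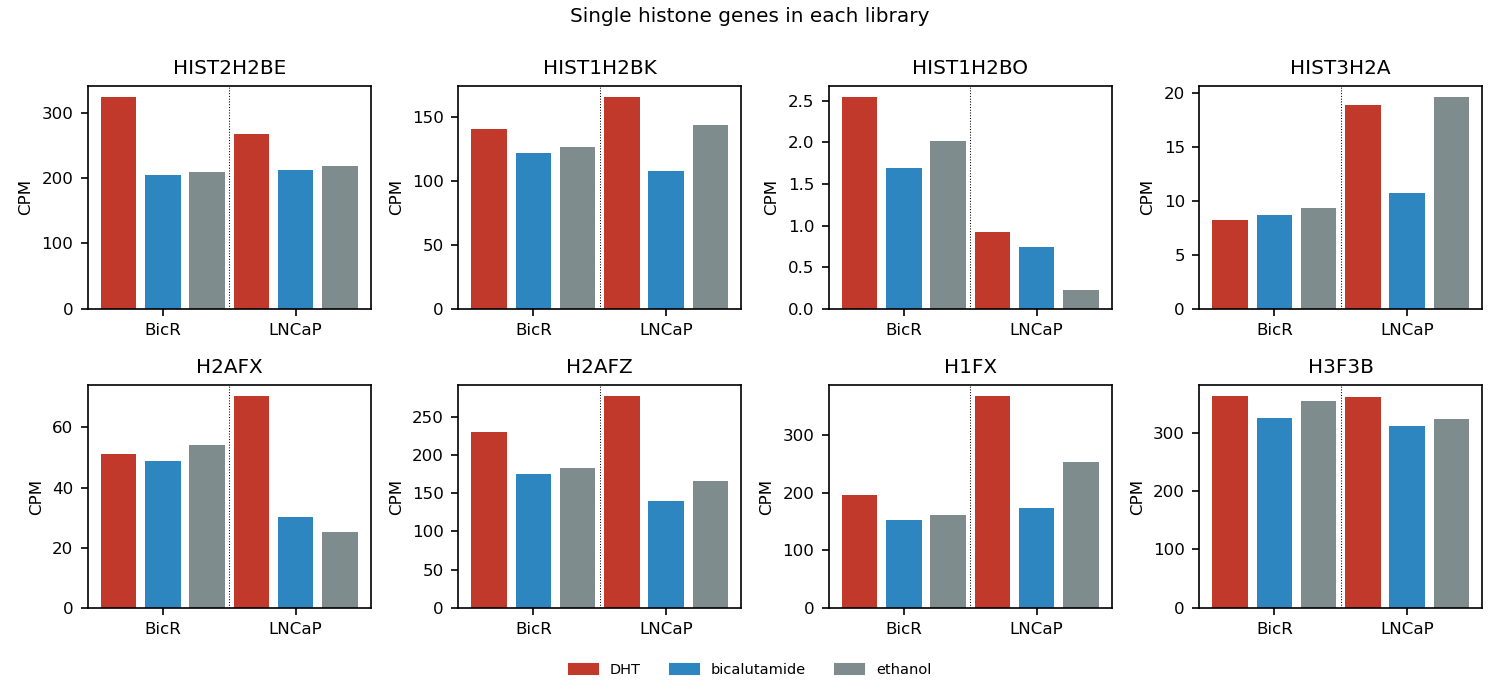
CPM of 8 histone genes in each library, BicR left and LNCaP right, coloured by treatment. HIST2H2BE and H2AFZ are highest under DHT in both lines, H2AFX stands at 70.5 CPM in LNCaP DHT alone, and HIST1H2BO is higher in every BicR library.

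Within a line, differences have no replicate check, and a gene was counted when it reached 2-fold on the log2(CPM + 1) scale. In LNCaP, DHT against ethanol gave HIST2H2AB (538 counts against 167, ratio 2.97) and H2AFX, both higher and 2 of 45 members, where 1.4% of all tested genes reached 2-fold higher and 2.59% in either direction. Because LNCaP ethanol stood apart, LNCaP DHT was also set against LNCaP bicalutamide. There HIST2H2AB (538 counts against 227, ratio 2.28), H2AFX (3828 against 1580, ratio 2.33) and H1FX (20018 against 9023, ratio 2.13) reached 2-fold, 3 of 45 members, where 1.58% of all genes did so on the higher side and 2.47% in all. Bicalutamide against ethanol in LNCaP gave H2AFJ, an H2A variant gene, lower (423 counts against 950, ratio 0.427), where 1.52% of all genes were lower by as much and 2.6% changed in either direction. In BicR 0 of 45 members reached 2-fold for DHT against ethanol (2.38% of all genes), for bicalutamide against ethanol (0.0%) or for DHT against bicalutamide (2.46%).

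For bicalutamide against ethanol over both lines, 0 members passed, as did 0.0% of all tested genes, with 141 genes at an unadjusted p under 0.05 and 1 member, HIST1H1C, among them. The median log2 fold change was -0.03 for replication-dependent and -0.08 for replacement genes, against 0.01 over all genes. HIST1H1C had 33.8 CPM in BicR bicalutamide, against 43.8 in BicR ethanol, and 42.9 in LNCaP bicalutamide, against 65.3 in LNCaP ethanol. The BicR ethanol library lay above LNCaP bicalutamide, and the log2 fold change was -0.49 (SE 0.18, adjusted p = 0.996 by edgeR). The highest replication-dependent estimates were HIST1H2AI at 0.68, HIST2H2AB at 0.54 and HIST1H2BO at 0.50, and those below HIST1H1C were HIST2H2BA at -0.57 and HIST3H2BB at -0.54. Replacement estimates ran from H2AFJ at -0.55, H1FX at -0.31 and H2AFZ at -0.15 up to H1F0 at -0.02, H2AFX at 0.02 and H2AFV at 0.13. With any 1 library left out, HIST1H2AI ran from 0.24 to 1.25, HIST2H2AB from 0.01 to 0.96 and H2AFJ from -1.14 to -0.0041, while HIST1H2BO changed sign.

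The lines were compared over the 3 treatments. Of the members, 1 of 35 replication-dependent genes passed, on the higher side, and 0 of 10 replacement genes, where 4.42% of all tested genes passed in either direction and 1.58% of all tested genes passed on the higher side. A single call does not set the members apart from these shares. HIST1H2BO, an H2B gene, was higher in BicR. It had 2.55, 1.69 and 2.02 CPM in BicR DHT, bicalutamide and ethanol, against 0.921, 0.748 and 0.220 CPM in LNCaP. All BicR libraries lay above all LNCaP libraries, with a log2 fold change of 1.84 (SE 0.42, adjusted p = 0.0478 by edgeR). It rested on 11 to 107 counts, and the call was lost without either ethanol library (estimate 1.32) or either bicalutamide library (2.22). Leaving out either library of a treatment gave the same estimate, because the other is then fitted by its own term. Such a pair of fits is therefore not 2 separate checks.

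**Figure D5:**
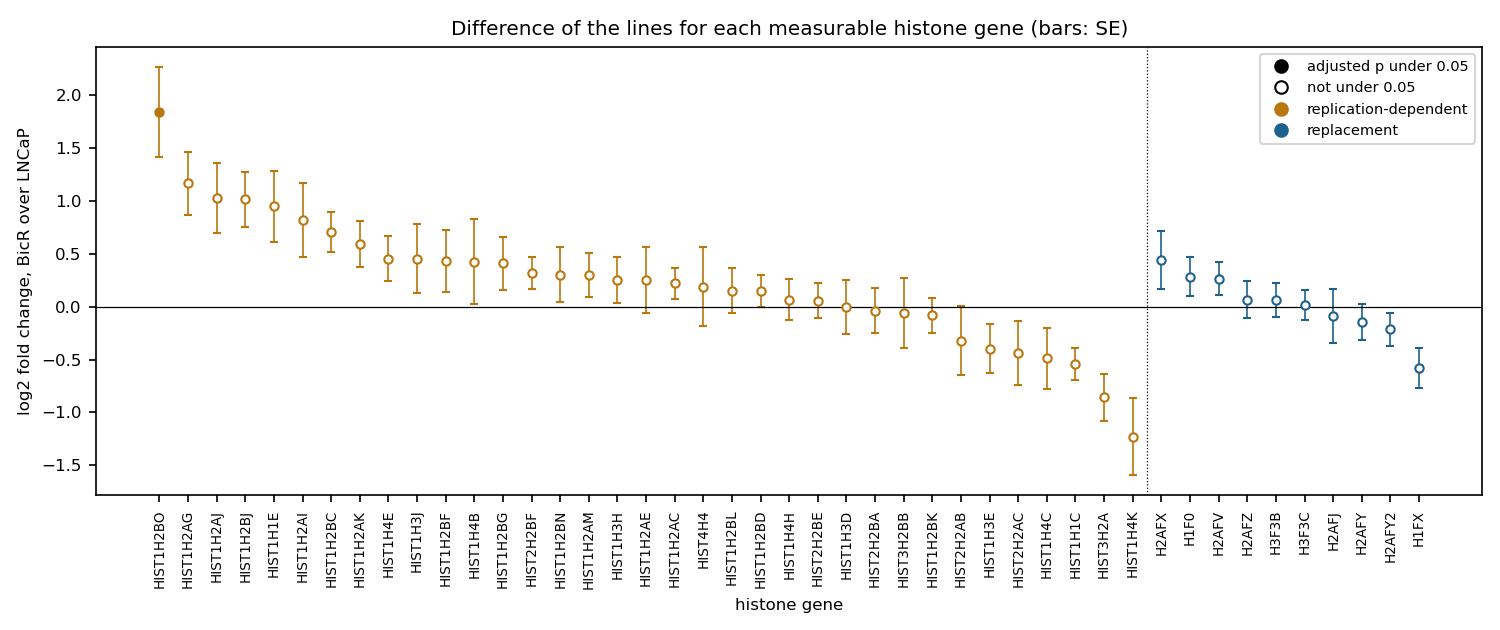
Log2 fold change of BicR over LNCaP with its SE for the 45 measurable members, replication-dependent left and replacement right. HIST1H2BO, at 1.84, is the filled point that passed; HIST1H4K, at -1.23, is the lowest estimate.

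The next estimates on the higher side were HIST1H2AG at 1.17 (adjusted p = 0.0617 by edgeR) and HIST1H2AJ at 1.03 (0.105), both H2A genes. On the lower side were HIST1H4K at -1.23 (0.0883), HIST3H2A at -0.86 (0.0623) and HIST1H1C at -0.54 (0.0777). HIST3H2A, an H2A gene outside the main cluster, had 8.25, 8.71 and 9.35 CPM in BicR DHT, bicalutamide and ethanol, against 18.8, 10.8 and 19.7 CPM in LNCaP, with no overlap. The HIST1H2AG estimate was 1.51 without either DHT library, and both fits take it from the same ethanol and bicalutamide libraries. HIST1H2AG (adjusted p = 0.00976) and HIST3H2A (0.00897) passed with DESeq2, which called more genes over all than edgeR in this contrast. Neither passed in the main edgeR fit. HIST1H4K and HIST1H4J share their whole coding sequence, so their split is uncertain. HIST1H2AJ and HIST1H2AI share most of theirs, with 15.5% and 17.0% of coding 50-base words of their own, and their split is uncertain too. Of the replication-dependent genes, 11 of 35 had all BicR libraries above all LNCaP libraries and 3 had them below. Of 10 replacement genes 2 lay above and 2 below. Over all tested genes 33.4% did not overlap, 16.6% with BicR higher and 16.8% with BicR lower. The median was 0.25 for replication-dependent and 0.04 for replacement genes, against -0.0037 over all genes. In the replacement class H2AFX (0.44), H1F0 (0.28) and H2AFV (0.27) were highest and H1FX (-0.58), H2AFY2 (-0.22) and H2AFY (-0.14) lowest. The H2AFX estimate was 0.89 without either DHT library, again from the same ethanol and bicalutamide libraries. H3F3B averaged 346.8 ± 19.96 CPM in BicR and 332 ± 25.05 CPM in LNCaP (SD, n = 3 each, over treatments).

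Genes that make, carry and time histones were listed beside the members. Of 22 tested genes for histone mRNA production and decay, 0 passed in any of the contrasts, and SLBP, which binds the stem-loop, stood at 42.3 to 48.6 CPM. NPAT, which activates histone gene transcription, stood at 21.5 to 34.7 CPM. Of 23 tested histone chaperone genes 0 passed. ASF1B, a chaperone of newly made H3 and H4, had 13.9, 14.9 and 18.6 CPM in BicR DHT, bicalutamide and ethanol, against 17.9, 8.57 and 5.24 CPM in LNCaP. ATRX, which deposits H3.3 together with DAXX, had 71.2, 72.0 and 79.4 CPM in BicR, against 99.1, 165 and 105 CPM in LNCaP, with no overlap (log2 fold change -0.69, adjusted p = 0.0772 by edgeR). DAXX had 101 to 119 CPM in BicR and 133 to 163 CPM in LNCaP. HIRA, which deposits H3.3 at active genes, stood at 76.2 to 87.3 CPM over all libraries. Of 24 tested S phase genes, 1 passed: CDC6, which loads the replicative helicase, was higher in BicR by 0.96 (adjusted p = 0.0384 by edgeR). Over all tested genes 0.166% passed for DHT, 0.0% for bicalutamide and 4.42% between the lines. The counts do not set these lists apart from those shares. The median log2 difference of the S phase list was -0.27 for DHT against ethanol in BicR and 0.58 in LNCaP. That of the replication-dependent genes was 0.20 in BicR and 0.26 in LNCaP. Because LNCaP ethanol stood apart, DHT was also set against bicalutamide. There the S phase median was -0.14 in BicR and 0.22 in LNCaP, and the replication-dependent median 0.14 in BicR and 0.44 in LNCaP. The part of S phase in the histone levels was not tested.

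The 3 genes whose log2(CPM + 1) ran most like the replication-dependent sum over the 6 libraries, among 9750 candidates, were TESK1 (r = 0.989), FOXK2 (0.987) and PPP3CC (0.987), given as a description with no test.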

How the data were processed

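Per the labels' protocols, ISOGEN was used to extract total RNA, and libraries were run on a SOLiD 3 Plus instrument. The deposited table holds the authors' raw counts and RPKM per gene symbol, as its header names them, on hg19, per the submitters' processing notes. No source used here gives the aligner, counter, annotation, strand use or read length. The 13885 genes averaging 20 counts or more were tested with edgeR 4.0.16 in R 4.3.3: TMM scaling, an additive model of line and treatment, the 2-sided quasi-likelihood test and Benjamini-Hochberg adjustment over all tested genes at 0.05, with 2 residual and 6.80 prior degrees of freedom. In this model disagreement between the lines is the error, and since nothing says that cultures were separate, p-values reflect spread among these libraries only, which may be technical. Within a line, count ratios carry exact 95% intervals, for counting error only.

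Alternatives were RLE size factors, no low-count filter, DESeq2 1.42.0, limma 3.58.1 on log2(RPKM + 0.1), leaving out each library, other pseudocounts and plain totals. Sequence features came from GENCODE release 29 transcripts (GRCh38), and all 87 symbols matched. The coordinates of that annotation served to cut the coding sequence out of each transcript. Genes overlapping a member's own locus were not counted as other genes. For HIST2H2BA, with no protein-coding transcript there, the whole transcript stood for the coding sequence. Members and gene lists were chosen with earlier results of these data known. Named genes were the 5 highest of each class by mean RPKM, the 3 highest and 3 lowest fold changes per contrast and class, every called member and a fixed list; not all are described.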

Additional observations from a re-analysis of the deposited data

Results flagged for a closer look

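In each case below the ratio to ethanol was on opposite sides of 1 in the lines, with both 95% counting intervals clear of 1. With 1 library per line and treatment the difference between the lines was not tested. For DHT against ethanol, the ratio for HIST1H4H was 1.42 in BicR and 0.849 in LNCaP, for H2AFX 0.944 in BicR and 2.78 in LNCaP, and for H2AFY2 0.883 in BicR and 1.19 in LNCaP. Because the LNCaP ethanol library stood apart, DHT was also set against bicalutamide. HIST1H4H then went the same way in both lines, with 1.63 in BicR and 1.17 in LNCaP (1.06 to 1.30). H2AFX was at 1.05 in BicR (0.988 to 1.11) and 2.33 in LNCaP, and H2AFY2 at 0.943 in BicR and 1.24 in LNCaP. For bicalutamide against ethanol, the ratio for H1F0 was 1.03 in BicR and 0.953 in LNCaP, for H2AFX 0.901 in BicR and 1.19 in LNCaP, and for H2AFY 0.862 in BicR and 1.03 in LNCaP.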

How the results depend on the processing

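The additive model pairs the treatments within each line. No further block by replicate number could be fitted, since each line and treatment has 1 library. Genes called for DHT against ethanol numbered 23, 77 without the low-count filter, 99 with DESeq2 and 0 to 273 with a library left out; replacement members numbered 0, and 0 to 1 with a library left out. For bicalutamide there were 0, 1 with limma and 0 to 197 with a library left out. For BicR against LNCaP there were 614, 1360 without the filter, 1490 with DESeq2 and 0 to 694 with a library left out, the 0 falling without either bicalutamide library. Replication-dependent members called there numbered 1, 6 without the filter, 6 with DESeq2, 7 with limma and 0 to 3 with a library left out, and replacement members 0, 1 with DESeq2 and 0 to 1. Calls over all genes also rose without the filter and with DESeq2, and their number with limma is not given here. The member counts are therefore not read as a trait of histone genes. The cause was not tested.

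Members at 2-fold with pseudocounts of 0.1 and 5 in place of 1 numbered 6 and 1 for LNCaP DHT against ethanol (2), and 3 and 0 for LNCaP bicalutamide against ethanol (1; 0 with plain totals). With 0.1 there were 9 for LNCaP DHT against bicalutamide (3), and 1 each for BicR DHT against ethanol (0) and against bicalutamide (0). A smaller pseudocount can only raise such counts, for any gene. The shares of all genes at 0.1 and 5 are not given here, so these counts are not read as a result about histone genes. The highest over the lowest library of the replication-dependent sum was 1.42, 1.35 in RPKM, 1.38 with plain totals and 1.45 without HIST2H2BE. For the replacement sum it was 1.26, 1.29, 1.28 and 1.31 without H1F0. For their ratio it was 1.13, 1.09 in RPKM and 1.19 without those genes, and the mean ratio was 0.305, 0.718 in RPKM and 0.277 without them.

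Some uncalled estimates changed sign, HIST1H2BO under bicalutamide and HIST3H2BB under DHT among them. With limma, H2AFY2 under DHT was -0.0089 and H1F0 under bicalutamide 0.028. With a library left out, DHT estimates ran from -0.44 to 0.40 for H2AFJ, -0.11 to 0.044 for H2AFY, -0.17 to 0.23 for H2AFY2, -0.52 to 0.0023 for HIST1H2BF and -0.83 to 0.0064 for HIST3H2BB. Bicalutamide estimates ran from -0.15 to 0.13 for H1F0, -0.41 to 0.57 for H2AFX, -0.36 to 0.036 for H2AFZ and -0.18 to 1.67 for HIST1H2BO.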
